A study of Rattus norvegicus with 8 samples.

Results

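The comparison was between H9C2 cells carrying PPARα with aspartate in place of serine 280 (S280D) and H9C2 cells carrying PPARα with alanine at the same residue (S280A). H9C2 is a rat cardiomyoblast line that was derived from embryonic heart. All libraries labelled as one of these mutants were taken, 2 per group, which gave 4 of the 8 libraries of the series. The other 4 libraries, 2 with the wild-type receptor (WT) and 2 with YFP alone, entered the fit and are given as reference levels. In every group the insert was carried by the vector pDC316, as YFP alone or as a YFP fusion of the receptor, and cells were collected after 2 days. The mutated receptor was added to cells that kept their own Ppara gene, and which species the insert came from is not stated in the labels. Poly(A) RNA was sequenced and reads per gene were counted. Whether the 2 libraries of a group represent separate cultures is not stated, and p-values therefore reflect only the spread among these samples, which may be technical.

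PPARα is a nuclear receptor that is switched on by fatty acids and their derivatives. It pairs with a retinoid X receptor (RXR), binds response elements near its target genes and exchanges corepressors such as NCoR for coactivators when ligand is bound. In heart muscle it is known for driving the uptake, activation and oxidation of fatty acids. Serine 280 can be phosphorylated by the kinase GSK-3α. Alanine cannot carry a phosphate, and aspartate has a negative charge that is used to imitate one, so the comparison addresses how the state of this residue affects transcription.

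The 2 mutants gave widely different profiles. Of 12407 genes tested, 4873 (39.3%) had an adjusted p under 0.05, 2641 of them higher in S280D (21.3%) and 2232 lower (18%). Adjusted p-values are those of edgeR's quasi-likelihood test with Benjamini-Hochberg adjustment over all genes tested. The increases were the larger changes, with a median log2 fold change of 0.96 against -0.57 for the decreases. More than 2-fold differences were found for 1220 of the genes that were higher and 127 of those that were lower. Values of the 2 groups did not overlap for 74.2% of all genes tested (36.6% higher and 37.7% lower in S280D), and for 2640 of the 2641 higher and all 2232 lower genes. Each sequencing lane, as the column names give it, held 1 library of each mutant. Within lane 1 the median difference was 1.19 for the higher and -0.72 for the lower genes on the log2 scale, and within lane 2 it was 0.62 and -0.39. The count rested on single libraries. Without S280A replicate 2 it was 963 higher and 291 lower, and without S280D replicate 1 it was 1114 higher and 216 lower. Calls were lost over all genes when either library was left out, so fewer calls in a list below are not by themselves particular to that list. The authors' deposited table gave 4070 genes that had an adjusted p under 0.05 for this pair, and 3937 of them were also called here, all in the same direction.

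Several properties of the libraries moved with the mutant. The S280A libraries held 14693406 and 14018785 exon reads and the S280D libraries 39526013 and 21050137. Reads of mitochondrially encoded genes made up 0.791% and 0.490% of exon reads in S280A and 1.66% and 1.40% in S280D. The 10 most abundant genes took 17.6% and 19.3% against 14.6% and 15.8%, and the share of exon reads that crossed an exon junction was 22.7% and 22.9% against 21.7% in both S280D libraries. The part of these properties in the results below was not tested, apart from depth, for which thinning all libraries to the smallest total gave 2482 higher and 2055 lower genes. Markers were read once for the identity of the cells. The myosin heavy chains Myh6 and Myh7 and the atrial peptide Nppa were below 0.5 CPM (counts per 1e6 exon reads of the library, scaled by TMM) in the 4 libraries. Tcf21, Cdh5 and Ptprc, which define cardiac fibroblasts, endothelium and leukocytes, were listed at 0 in these libraries, although other members of the marker lists were present. Of 10 fibroblast markers 8 were measured, Col1a1 and Vim among them. The 2 measured endothelial markers summed to 10.6 to 17.2 CPM, the 2 macrophage markers to 20.04 to 23.2 CPM and the 4 cardiomyocyte markers to 211 to 228 CPM, nearly all of it Tnnt2.

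**Figure D1:**
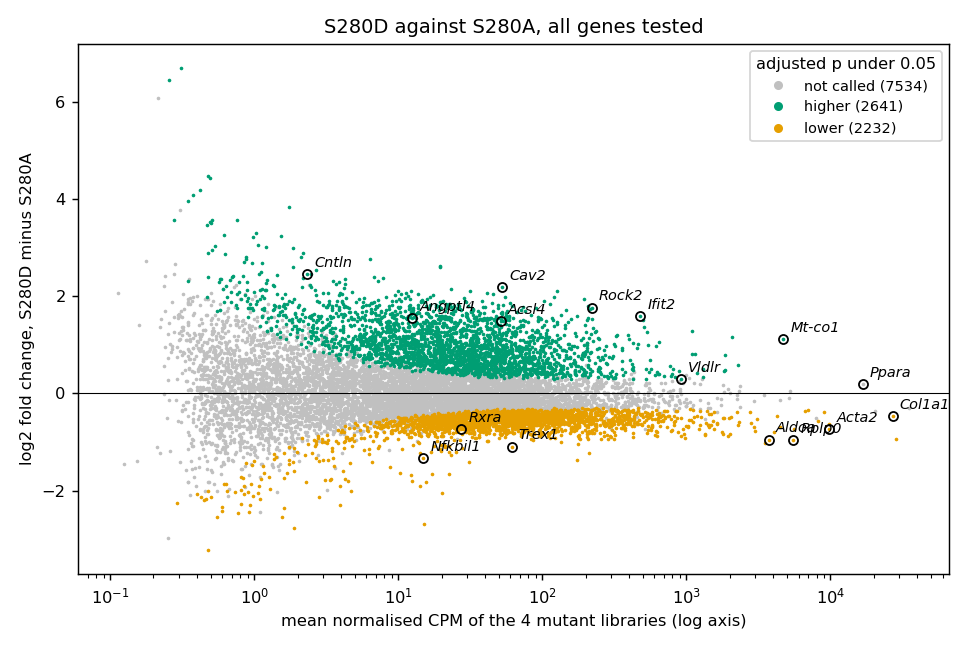
Log2 fold change of S280D over S280A (vertical axis) against mean CPM of the 4 mutant libraries (horizontal log axis) for the 12407 genes tested, 1 point per gene, with 2641 called higher in green, 2232 called lower in orange and the rest in grey. The increases reach further from 0 than the decreases, and circles mark genes described in the text.

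RNA of the receptor was abundant in both mutants, and no protein level was measured here. Ppara stood at 17400 and 13736 CPM in the S280A libraries and at 17911 and 17693 CPM in the S280D libraries. Its mean was 18258 CPM in WT and 66.9 CPM in YFP. The 2 WT libraries lay apart, with 1.29% and 2.43% of exon reads on Ppara. These shares were 1.69% and 1.22% in S280A and 1.87% and 1.85% in S280D. The 2 mutant groups did not overlap, but their log2 difference of 0.19 ± 0.25 (SE) did not pass the test (adjusted p = 0.565). Reads of the delivered and the rat gene were counted together in this value.

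Among 26 measured genes of a list of canonical PPAR targets, 6 rose (23.1%) and 2 fell (7.69%) in S280D, beside 21.3% and 18% of all genes. The higher share was near that of all genes. The median log2 fold change of the list was 0.15, and that of all genes tested was -0.01. The clearest member was Angptl4, which encodes a secreted inhibitor of lipoprotein lipase and is a classical PPAR target. Angptl4 stood at 7.72 and 4.91 CPM in S280A against 19.0 and 18.3 CPM in S280D, without overlap. Its log2 fold change was 1.55 ± 0.26 (adjusted p = 0.00232). The WT libraries had a mean of 8.63 CPM and the YFP libraries 2.67 CPM. Angptl4 passed the test in all 17 alternative analyses. The count of the list moved with single libraries, to 2 higher and 1 lower without S280A replicate 2 and 4 higher and 0 lower without S280D replicate 1.

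Other targets that rose did so by smaller steps or at lower levels. Hsdl2, a peroxisomal protein of lipid metabolism, stood at 14.7 and 12.9 CPM in S280A against 22.2 and 26.8 CPM in S280D (log2 fold change 0.82 ± 0.17, adjusted p = 0.00444). Cpt1b, the muscle form of the enzyme that commits long-chain fatty acids to mitochondrial import, was at 5.97 and 5.07 CPM against 9.36 and 10.3 CPM (0.83 ± 0.21, adjusted p = 0.011). Etfdh, which passes electrons from fatty acid oxidation to ubiquinone, rose by 0.84 ± 0.24. In these genes both S280D libraries lay above both S280A libraries, and the YFP means of Hsdl2 (10.6 CPM), Cpt1b (4.64 CPM) and Etfdh (7.67 CPM) were near the S280A values. Acot2, a mitochondrial acyl-CoA thioesterase, rose by 0.57 ± 0.13, but only 46.3% of its reads were unique.

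Several well-known oxidation genes under PPARα did not pass. Cpt1a, the liver form of the import enzyme, was at 23.9 and 27.9 CPM in S280A, against 30.1 and 29.1 CPM in S280D (0.20 ± 0.19, adjusted p = 0.443). The values of Acadm (0.40 ± 0.23), Acadvl (-0.09 ± 0.19), Hadha (0.03 ± 0.13) and the lipid droplet coat gene Plin2 (0.09 ± 0.11) did not pass either. Mlycd, which removes the malonyl-CoA that blocks fatty acid import, fell by 0.63 ± 0.15 on the log2 scale (-0.63), from 25.8 and 22.8 CPM to 15.4 and 15.98 CPM. Slc25a20, the carnitine-acylcarnitine carrier, fell by 0.35 on the log2 scale (adjusted p = 0.0477). Cd36, Fabp3, Fabp4 and Pdk4 did not pass the filter on low counts, with at most 0.459 CPM of Cd36 in any of the 4 libraries.

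**Figure D2:**
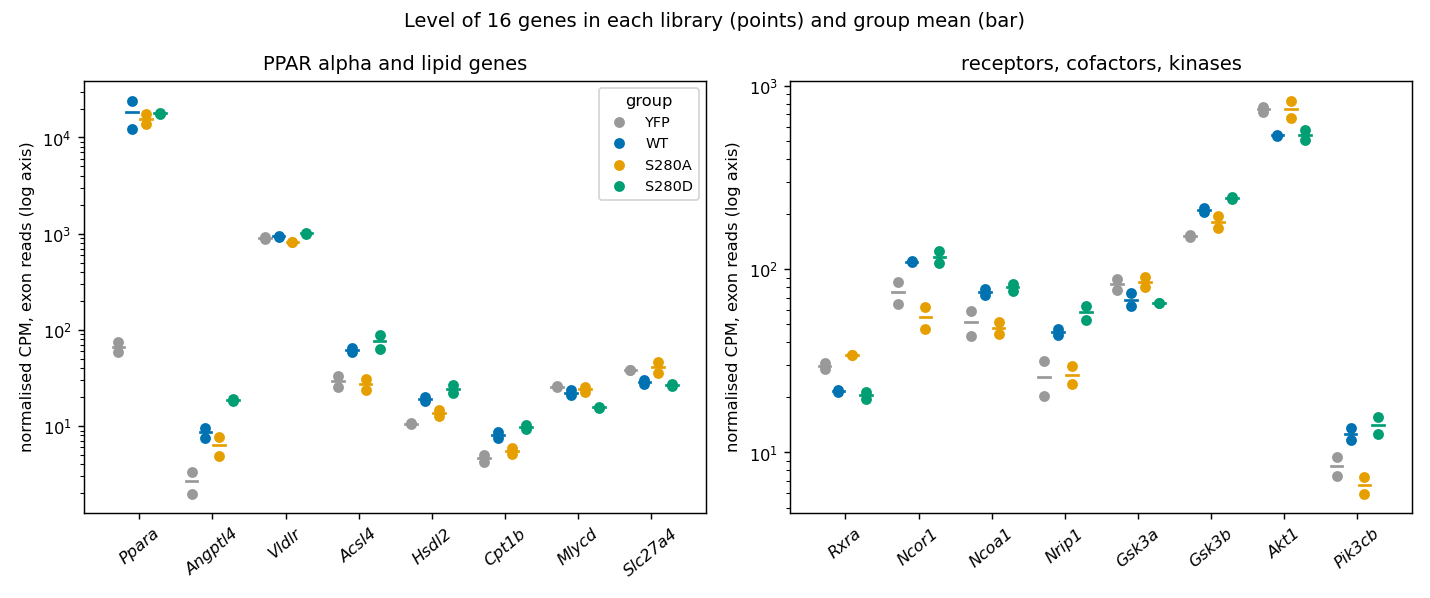
CPM of 16 genes on a log axis in each library (points) and as group means (bars) for YFP, WT, S280A and S280D, 2 libraries each, with PPARα and lipid genes on the left and receptors, cofactors and kinases on the right. Ppara is far higher in the receptor groups than in YFP, and its 2 WT points lie apart (1.29% and 2.43% of exon reads). Angptl4 is highest in S280D. For Rxra, Ncor1, Ncoa1, Akt1 and Pik3cb the WT points lie nearer to the S280D than to the S280A points.

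In fatty acid uptake and activation 5 of 16 measured members were higher and 5 lower, which is 31.3% each beside 21.3% and 18% of all genes. Acsl4, which activates arachidonic and other polyunsaturated fatty acids, changed most among the higher genes. Acsl4 stood at 30.7 and 23.8 CPM in S280A against 89.3 and 62.8 CPM in S280D (log2 fold change 1.48 ± 0.20, adjusted p = 0.00166), without overlap. Its relative Acsl3 rose by 0.66 ± 0.20, whereas Acsl1 (0.23 ± 0.12) and Acsl5 (0.03 ± 0.11) did not pass. Vldlr, the receptor that takes up triglyceride-rich lipoproteins, was at 826 and 812 CPM in S280A against 1018 and 999 CPM in S280D. Its log2 fold change of 0.30 ± 0.11 passed narrowly (adjusted p = 0.0417) and did so in 7 of 17 alternatives. Cav1, the scaffold of caveolae, rose by 0.37 ± 0.12. Its partner Cav2, which is in none of the lists, went from 23.0 and 14.5 CPM to 78.9 and 92.8 CPM (2.19 ± 0.20, adjusted p = 0.00159), with a mean of 45.5 CPM in WT and 7.46 CPM in YFP.

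Among the genes of that list that fell, Slc27a4, a fatty acid transport protein, did so by 0.61 on the log2 scale, from 35.6 and 45.9 CPM to 25.9 and 27.6 CPM. The related Slc27a1 (-0.58 ± 0.26) and Slc27a3 (-0.07 ± 0.43) and the lipase gene Lpl (1.09 ± 0.91) did not pass. Lmf1, which matures lipoprotein lipase, fell by 0.72 on the log2 scale (adjusted p = 0.00979). Got2 fell by 0.41 and Acot7, a cytosolic thioesterase, by 0.66. Fabp5, a fatty acid binding protein, was called lower at a very low level, with 1.05 and 0.966 CPM against 0.266 and 0.0911 CPM. The list held 10 calls, 2 without S280A replicate 2 and 3 without S280D replicate 1.

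In mitochondrial β-oxidation 3 of 25 measured members were higher (12%) and 5 lower (20%), with a median of -0.09, beside 21.3% and 18% of all genes. Without S280A replicate 2 only 1 member was called, lower, and without S280D replicate 1 none was. Beside Cpt1b and Etfdh, the electron carrier subunit Etfa rose by 0.68 ± 0.17. Its partner subunit Etfb fell by 0.37 on the log2 scale and was not called with a correction for exon length (adjusted p = 0.271). Acads, the dehydrogenase of short-chain acyl-CoA, fell by 0.70 on the log2 scale, from 48.6 and 71.8 CPM to 34.3 and 39.7 CPM, and Crat, carnitine acetyltransferase, by 0.65. Of 15 measured peroxisomal members 2 rose (13.3%) and 1 fell (6.67%), both below the shares of all genes. Crot (1.07 ± 0.19) and the fatty acid importer Abcd3 (0.72 ± 0.17) rose. Acot8 fell, but only 17.7% of its reads were unique. The triglyceride list held 1 higher and 5 lower of 23 members, with a median of -0.25, but 0 and 2 without S280A replicate 2 and 0 and 0 without S280D replicate 1. The shares of the triglyceride list were 4.35% higher and 21.7% lower, the latter near the 18% of all genes. Abhd5, the activator of adipose triglyceride lipase, rose by 0.60 ± 0.16, and Plin3, a droplet coat protein, fell by 0.63 on the log2 scale.

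The partners of the receptor changed in both directions, with 40.9% of measured members higher and 36.4% lower, beside 21.3% and 18% of all genes. Of 22 measured receptors and cofactors 9 were higher and 8 lower, with 3 and 1 without S280A replicate 2 and 4 and 1 without S280D replicate 1. Rxra, the main RXR partner, stood at 34.1 and 33.8 CPM in S280A against 19.5 and 21.4 CPM in S280D, a decrease of 0.73 on the log2 scale (-0.73 ± 0.14, adjusted p = 0.00333). The related Rxrb fell by 0.52 (adjusted p = 0.0464), and Ppard did not pass (-0.40 ± 0.19). Pparg and Ppargc1a stood at no more than 0.242 CPM in the 4 libraries and were not tested.

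Ncor1, a large corepressor of nuclear receptors, rose from 62.1 and 47.3 CPM to 126 and 109 CPM (1.10 ± 0.17, adjusted p = 0.00185), without overlap. Other parts of the corepressor machinery differed in sign. Tbl1xr1, which exchanges corepressors for coactivators, rose by 1.70 ± 0.30, and the deacetylase Hdac3 fell by 0.54 on the log2 scale. Nrip1, the ligand-dependent corepressor RIP140, was at 29.6 and 23.7 CPM against 63.3 and 52.9 CPM (1.13 ± 0.20), with no overlap between the groups. The deacetylase Sirt1 rose by 1.28 ± 0.30.

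Among coactivators, members of the p160 and Mediator families rose. Ncoa1 rose by 0.73 ± 0.16, Ncoa2 by 0.99 ± 0.25 and the Mediator subunit Med1 by 0.66 ± 0.16. Ncoa3 (0.19 ± 0.15) and the acetyltransferase Ep300 (0.34 ± 0.14) did not pass. Ncoa6 and Crebbp were called higher, but with a correction for exon length their values were 0.03 (adjusted p = 0.845) and 0.08 (adjusted p = 0.616). The methyltransferase Carm1, the PGC-1-related coactivator Pprc1 and the estrogen-related receptor Esrra fell by 0.51, 0.38 and 0.49 on the log2 scale.

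The GSK-3 and Akt list had 70% of its members higher and 30% lower, beside 21.3% and 18% of all genes. All 10 measured genes of the list were called, 7 higher and 3 lower, with a median of 0.61. Only 3 of them were called without S280A replicate 2 and 4 without S280D replicate 1, all higher. The isoforms divided. Gsk3b rose from 195 and 168 CPM to 248 and 240 CPM (0.43 ± 0.11, adjusted p = 0.0139). Gsk3a, the isoform tied to serine 280, fell from 79.8 and 90.5 CPM to 65.4 and 65.5 CPM (-0.38 ± 0.13, adjusted p = 0.0411), a call that held in 7 of 17 alternatives. Akt1 and Akt2, which inhibit GSK-3 by phosphorylation, fell by 0.46 and 0.41 on the log2 scale. The phosphoinositide 3-kinase catalytic subunits Pik3ca (1.17 ± 0.20) and Pik3cb (1.10 ± 0.21), the regulatory subunit Pik3r1 (0.74 ± 0.21) and the kinase Pdpk1 (0.66 ± 0.21) rose.

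Energy metabolism separated the mitochondrial from the nuclear genome. Of 11 mitochondrially encoded genes measured 10 rose (90.9%) and none fell, beside 21.3% and 18% of all genes. Their median log2 fold change was 1.04. Mt-co1, the catalytic subunit of cytochrome oxidase, stood at 3435 and 2462 CPM in S280A against 6596 and 6235 CPM in S280D (1.12 ± 0.17, adjusted p = 0.00185). Mt-atp6 was at 488 and 341 CPM against 860 and 768 CPM. Mt-nd6 was the member that did not pass (0.58, adjusted p = 0.0561). Of the genes, 9 rose without S280A replicate 2 and 8 without S280D replicate 1. In WT the mean of Mt-co1 was 5541 CPM and in YFP 2606 CPM.

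Of 59 nuclear-encoded subunits of the respiratory chain, 33 fell (55.9%) and 3 rose (5.08%), with a median of -0.48. Among all genes 18% fell and 21.3% rose. In complex I, Ndufv1, which holds the NADH site, fell from 105 and 140 CPM to 59.5 and 74.2 CPM (-0.87 ± 0.16), and the accessory subunit Ndufb7 from 65.5 and 78.6 CPM to 40.3 and 40.1 CPM. Uqcrc1 of complex III (-0.76), Cox4i1 of complex IV (-0.60) and Atp5b of ATP synthase (-0.69) fell as well. The 3 that rose, Cox6c, Cox7b and Cox7c, are small subunits of complex IV, and only 15.9% of the reads of Cox7b were unique. Cox6c had 62.2 and 56.9 CPM against 89.0 and 81.5 CPM, with 448 exon bases. These genes have a median exon length of 726 bases, and with a correction for exon length 21 were lower and 6 higher. Fewer members were called lower without S280A replicate 2 or without S280D replicate 1, as over all genes. The list median was -0.33 and -0.39 in these settings.

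No measured gene of glycolysis rose. Of 23 measured genes 13 were lower (56.5%, beside 18% of all genes), with a median of -0.49. With the correction for exon length 11 were lower. There were 5 lower genes without S280A replicate 2 and 7 without S280D replicate 1. Aldoa, which splits fructose bisphosphate, went from 4133 and 5725 CPM to 2488 and 2617 CPM (-0.95 ± 0.18, adjusted p = 0.00338). Gpi, which turns glucose 6-phosphate into fructose 6-phosphate, fell from 149 and 168 CPM to 91.6 and 93.0 CPM, and the muscle enolase Eno3 from 262 and 315 CPM to 180 and 179 CPM. The 3 phosphofructokinase genes Pfkl, Pfkm and Pfkp fell by 0.67, 0.38 and 0.49 on the log2 scale. The hexokinase Hk1 fell by 0.50, while Hk2 (0.05), the glucose transporter Slc2a1 (-0.52) and Gapdh (-0.37) did not pass. Only 0.152% of the reads of Gapdh were unique.

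In the pyruvate dehydrogenase and citrate cycle list 4 of 32 members rose (12.5%) and 9 fell (28.1%), beside 21.3% and 18% of all genes. Mdh2 and Idh2, enzymes of the cycle, fell by 0.81 and 0.70 on the log2 scale. Dld, the shared subunit of the large dehydrogenases, rose from 175 and 134 CPM to 314 and 242 CPM (0.85 ± 0.18), and Sucla2 rose by 1.00 ± 0.22. Pdp1 and Pdp2, the phosphatases that switch pyruvate dehydrogenase on, rose by 0.60 and 0.65. The list held 13 calls, 2 without S280A replicate 2 and 1 without S280D replicate 1.

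Lipid synthesis genes were lower or did not pass, with few exceptions. Of 16 measured fatty acid synthesis genes 8 fell (50%) and none rose, beside 18% and 21.3% of all genes. Fasn, the fatty acid synthase, went from 340 and 393 CPM to 237 and 248 CPM (-0.60 ± 0.11), and its regulator Srebf1 fell by 0.53 on the log2 scale. Of 28 cholesterol genes 10 fell (35.7%) and 3 rose (10.7%). Srebf2, the regulator of that path, fell from 140.5 and 146 CPM to 102.6 and 100.9 CPM, and its escort Scap fell by 0.79 on the log2 scale. The genes that rose, Hmgcs1 (0.84 ± 0.24), Idi1 (1.55 ± 0.33) and Ggps1 (1.08 ± 0.20), belong to the isoprenoid part of the path. Mvk and Mvd of that same part fell by 0.68 and 0.87 on the log2 scale. Without S280A replicate 2 there was 1 call among the fatty acid synthesis genes and 5 among the cholesterol genes, and without S280D replicate 1 there were 0 and 3.

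**Figure D3:**
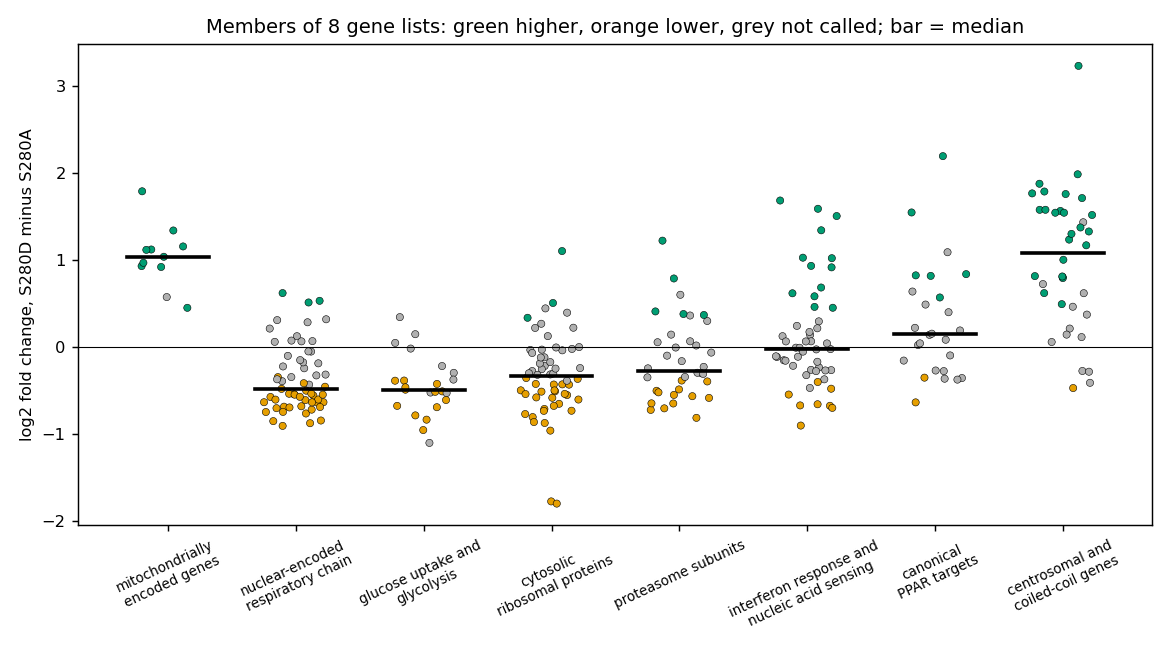
Log2 fold change of S280D over S280A for each measured member (points, spread sideways for legibility) of 8 gene lists, coloured by call, with the list median as a black bar. Medians run from -0.49 for glycolysis to 1.09 for centrosomal genes, and the mitochondrially encoded genes lie above the nuclear-encoded respiratory chain.

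Of 51 measured genes of the interferon response 13 rose (25.5%) and 8 fell (15.7%), shares near the 21.3% and 18% of all genes, and their median was -0.02. These counts were 6 and 1 without S280A replicate 2 and 9 and 0 without S280D replicate 1. Ifit2, an interferon-induced inhibitor of translation, stood at 272 and 203 CPM in S280A against 775 and 660 CPM in S280D (1.59 ± 0.16, adjusted p = 0.00159). Eif2ak2, the double-stranded RNA sensor PKR, was at 286 and 232 CPM against 835 and 642 CPM, and Ifih1, the sensor MDA5, at 41.8 and 30.4 CPM against 130 and 103 CPM. Irf7, the master regulator of type I interferon, was at 1516 and 1982 CPM against 1054 and 1171 CPM (-0.65 ± 0.19, adjusted p = 0.0184). Oas1a, an oligoadenylate synthetase, fell by 0.67 on the log2 scale and Ifi35 by 0.90, whereas Isg15 (-0.26) and Mx1 (-0.11) did not pass.

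Promoters are shown for 4 of these genes because the same response element precedes genes that moved apart. The interferon-stimulated response element was searched as 2 copies of GAAA with any 2 bases between, on both strands, in the RefSeq promoters of GRCr8, from 250 bases before to 50 bases after the start. It was found in 3.77% of 27457 promoters and in 17 of the 36 list members that had a promoter in the table. The 100 bases before the start follow, 5′ to 3′ in the direction of the gene, with every match in capitals.
Eif2ak2, higher, chr6:21941054-21941153, plus strand: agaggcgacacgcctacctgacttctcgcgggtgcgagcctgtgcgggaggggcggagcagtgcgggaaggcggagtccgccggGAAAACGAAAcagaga
Ifih1, higher, chr3:67683969-67684068, minus strand: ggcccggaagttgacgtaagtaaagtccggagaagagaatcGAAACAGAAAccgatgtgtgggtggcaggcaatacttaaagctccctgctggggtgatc
Irf7, lower, chr1:205800024-205800123, minus strand: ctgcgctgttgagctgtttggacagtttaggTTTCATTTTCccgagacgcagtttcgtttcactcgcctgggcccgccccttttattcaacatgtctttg
Oas1a, lower, chr12:41330366-41330465, plus strand: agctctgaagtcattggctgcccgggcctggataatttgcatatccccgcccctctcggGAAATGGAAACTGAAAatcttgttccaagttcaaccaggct
The match lies on the gene's own strand in Eif2ak2, Ifih1 and Oas1a and on the opposite strand in Irf7. In Oas1a 2 matches overlap. A match in this window is a description of the letters, not a measured site of binding.

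Antigen presentation had no member that rose. Of 16 measured members 8 fell (50%) and none rose, beside 18% and 21.3% of all genes, with a list median of -0.44. Psmb10, a catalytic subunit of the immunoproteasome, went from 223 and 339 CPM to 145 and 179 CPM (-0.80 ± 0.20), and the chaperone Calr from 1252 and 1382 CPM to 910 and 973 CPM. Without S280A replicate 2, or without S280D replicate 1, 1 member of this list was called.

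In the NF-κB and cytokine list 5 of 36 measured members rose (13.9%) and 6 fell (16.7%), both below the shares of all genes. They numbered 2 and 0 without S280A replicate 2 and 2 and 1 without S280D replicate 1. The kinase Chuk, an activator of the pathway, rose from 21.4 and 14.1 CPM to 54.0 and 39.3 CPM (1.39 ± 0.23), while the kinase Ikbkb fell by 0.39 on the log2 scale. The subunits Rela and Nfkb2 fell by 0.52 and 0.70, and Rel, at 10.4 CPM or less in each of the 4 libraries, rose by 0.75 ± 0.22. The inhibitors Nfkbia and Nfkbib fell by 0.53 and 0.81. Among inflammatory products, Ptgs2, the inducible cyclooxygenase, rose from 27.03 and 19.2 CPM to 58.3 and 50.2 CPM (1.23 ± 0.21), and Il6 from 7.30 and 8.62 CPM to 17.2 and 11.3 CPM (0.85 ± 0.23). The receptor Tlr4 rose by 1.03 ± 0.24.

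Some of the 25 members not called between the mutants had higher means in WT, whose libraries both came from lane 2. Only such members are given here, and Cxcl1 and Vcam1 averaged just 0.59 and 1.7 CPM in the mutants. Zc3h12a, an RNase that degrades cytokine messages, was at 7.93 and 6.20 CPM in S280A, at 7.59 and 6.60 CPM in S280D and at a mean of 38.7 CPM in WT. Cxcl1 had 0.211 and 0.725 CPM against 0.943 and 0.501 CPM, with 9.56 CPM in WT. Ccl2 (-0.02 ± 0.50), Vcam1 (0.04 ± 0.35) and Tnfaip3 (0.00 ± 0.15) were not called either, with WT means of 3.27, 5.09 and 34.7 CPM.

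Sequences are shown for 3 NF-κB genes, again because the motif precedes genes that moved in opposite directions. The site, searched as GGGA and TTCC with any 2 bases between, on both strands, was found in 1.29% of all promoters and in 9 of the 28 list members with a promoter.
Il6, higher, chr4:5894576-5894675, minus strand: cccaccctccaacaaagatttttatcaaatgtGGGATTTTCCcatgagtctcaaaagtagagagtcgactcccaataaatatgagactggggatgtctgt
Nfkb2, lower, chr1:255108274-255108373, plus strand: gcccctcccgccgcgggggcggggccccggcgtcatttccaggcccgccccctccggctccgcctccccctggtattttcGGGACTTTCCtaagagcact
Nfkbia, lower, chr6:78597073-78597172, minus strand: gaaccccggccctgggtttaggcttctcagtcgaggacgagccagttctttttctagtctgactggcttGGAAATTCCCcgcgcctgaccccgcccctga
Each promoter holds 1 match, at 68 bases before the start in Il6, 20 in Nfkb2 and 31 in Nfkbia. A PPAR response element was searched on both strands as 2 copies of AGGNCA with any 1 base between. It was found in 0.412% of all promoters and in none of the 20 PPAR targets with a promoter in the table. At so low a share 20 promoters would mostly hold no match, and bases beyond these promoters were not searched. The targets can therefore not be said to lack the element.

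Of 58 cytosolic ribosomal protein genes 28 fell (48.3%) and 3 rose (5.17%), with a median of -0.33. Of 73 mitochondrial ones 24 fell (32.9%) and 4 rose (5.48%), beside 18% and 21.3% of all genes. The mitochondrial list had 3 lower and 0 higher members without S280A replicate 2 and 2 and 1 without S280D replicate 1. Rplp0, of the ribosomal stalk, went from 5970 and 8579 CPM to 3559 and 3941 CPM (-0.96 ± 0.18), and Rpl18 from 353 and 452 CPM to 236 and 257 CPM. Many of these genes share reads with processed copies, and the largest changes of the list, in Rps6 and Rpl8, rest on genes without unique reads. With the correction for exon length 18 cytosolic members were lower and 7 higher, with a median of -0.12. The lower members numbered 10 without S280A replicate 2 and 6 without S280D replicate 1. Of 36 proteasome genes 13 fell (36.1%) and 5 rose (13.9%), but with the correction for exon length 8 fell and 7 rose. Those counts were 3 and 2 without S280A replicate 2 and 1 and 2 without S280D replicate 1. Psmd2 and Psmc3, of the regulatory particle, fell by 0.64 each on the log2 scale, while Psmc6 of the same particle rose from 28.9 and 25.5 CPM to 76.7 and 50.4 CPM (1.23 ± 0.20) and Psma5 by 0.37 ± 0.13. The lysosome and autophagy list held 18 lower and 9 higher of 54 members, 2 and 1 without S280A replicate 2 and 1 and 0 without S280D replicate 1. The shares of the lysosome and autophagy list were 33.3% lower and 16.7% higher. Among its members the proton pump subunit Atp6v0a1 fell (-0.58 ± 0.11) and the conjugation factors Atg12 (0.71 ± 0.15) and Atg3 (0.93 ± 0.22) rose.

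Of 34 antioxidant and NRF2 genes 16 fell (47.1%) and 3 rose (8.82%), beside 18% and 21.3% of all genes. Nfe2l2, which encodes NRF2, itself rose by 0.39 ± 0.12. Gstp1, a glutathione transferase, went from 214 and 265 CPM to 130 and 119 CPM (-0.94 ± 0.18), and Tkt of the pentose phosphate path from 243 and 279 CPM to 148 and 143 CPM. Slc7a11, the cystine importer, was opposite, with 44.7 and 35.5 CPM against 127 and 86.1 CPM (1.41 ± 0.20). In the unfolded protein and integrated stress list 14 of 38 members fell (36.8%) and 5 rose (13.2%). Atf5 fell by 0.82 on the log2 scale, the serine synthesis enzyme Phgdh by 0.82 and the chaperone Hyou1 by 0.55 (also on the log2 scale), while the co-chaperone Dnajb9 rose by 1.13 ± 0.24. In the chaperone list 9 of 33 measured members fell and 7 rose, but 2 and 0 without S280A replicate 2 and 1 and 0 without S280D replicate 1. The shares of the chaperone list were 27.3% lower and 21.2% higher, the latter near that of all genes. The small heat shock proteins Hspb1 and Cryab fell by 0.80 and 0.68, and the co-chaperones Dnaja1 and Dnaja2 rose by 0.76 and 0.56. The antioxidant list had 6 calls without S280A replicate 2 and 6 without S280D replicate 1, and the unfolded protein list 3 and 4.

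Abundant genes of the cytoskeleton and the matrix changed in both directions. Col1a1, a chain of type I collagen, stood at 28394 and 34232 CPM in S280A against 21677 and 23559 CPM in S280D (-0.47 ± 0.15, adjusted p = 0.0314). Acta2, smooth muscle actin, went from 10435 and 14127 CPM to 6829 and 7903 CPM (-0.74 ± 0.16), and Actb, Vim and Tagln fell by 0.73, 0.57 and 0.59 on the log2 scale. Against these, the matrix protein Postn rose from 1474 and 1225 CPM to 2469 and 2213 CPM (0.80 ± 0.16), the collagen crosslinker Lox from 941 and 729 CPM to 1487 and 1424 CPM, and the actin-binding protein Cald1 from 719 and 546 CPM to 1616 and 1480 CPM (1.29 ± 0.19). In the whole list of matrix genes 18 of 53 fell (34.0%) and 7 rose (13.2%), beside 18% and 21.3% of all genes. In the muscle list 10 of 33 fell (30.3%) and 5 rose (15.2%). The muscle transcription factors Mef2a and Mef2c rose by 1.16 ± 0.20 and 1.33 ± 0.19, and Dmd, which encodes dystrophin, by 1.88 ± 0.29. Of 8 measured fibroblast markers 4 fell (50%) and 1 rose (12.5%), beside 18% and 21.3% of all genes. Their summed level was 43276 to 50484 CPM in S280A, against 33788 to 36582 CPM in S280D. None of these markers was called without S280A replicate 2, without S280D replicate 1 or with lane as a block on the 4 libraries. In these bulk samples fewer cells of a type and less RNA per cell cannot be told apart. In the cardiac stress list 2 of 23 members rose, among them Ankrd1 (0.49 ± 0.11), and 2 fell, which is 8.70% each. Without S280A replicate 2 the matrix list had 2 higher and 1 lower member and the muscle list 3 higher and 0 lower, and without S280D replicate 1 these were 2 and 0 and 3 and 0.

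Most centrosomal and coiled-coil genes rose. Of 38 measured members 25 rose (65.8%, beside 21.3% of all genes) and 1, Cep164, fell, with a median of 1.09. With the correction for exon length 24 rose and 3 fell. This list, like the others, was chosen with earlier results of these data known. Its share beside that of all genes is therefore a description only. Rock2, a kinase of actin contraction, stood at 116 and 84.7 CPM in S280A against 421 and 259 CPM in S280D (1.76 ± 0.22, adjusted p = 0.00159), and Rock1 at 27.1 and 17.5 CPM against 111 and 66.3 CPM. S280D replicate 1 was the higher S280D library for both kinases. Without S280D replicate 1, as without S280A replicate 2, 13 members rose.

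Of 60 measured cell cycle genes 18 rose (30%) and 12 fell (20%), beside 21.3% and 18% of all genes, with 4 and 5 without S280A replicate 2 and 7 and 1 without S280D replicate 1. Genes of the kinetochore and the spindle were among those that rose, such as Cenpe (12.5 and 10.1 CPM against 45.6 and 28.3 CPM), Cenpf (1.78) and Ttk (1.40 ± 0.28), and so did Mki67, a marker of cycling cells (1.48 ± 0.28). The replicative helicase genes that fell were Mcm5 (33.1 and 30.8 CPM against 19.3 and 17.7 CPM), Mcm2, Mcm3, Mcm6 and Mcm7, and so did Ccne1 and Plk1. Cdk1, Pcna and Ccnb1 did not pass (0.01, -0.00 and 0.05). With the correction for exon length 17 cell cycle genes were higher and 15 lower. In the spliceosome list 21 of 63 rose and 13 fell, but 7 and 1 without S280A replicate 2 and 10 and 1 without S280D replicate 1, with the snRNP factor Prpf39 (1.76 ± 0.24) on one side and the SF3A subunit Sf3a2 (-0.82 ± 0.15) on the other. Among apoptosis and p53 genes 9 of 30 rose and 9 fell, but 5 and 0 without S280A replicate 2 and 6 and 0 without S280D replicate 1. Xiap, the caspase inhibitor, rose from 6.11 and 3.06 CPM to 22.7 and 16.8 CPM. Shares called higher and lower were 33.3% and 20.6% in the spliceosome list, 30% each in the apoptosis list and 16.7% and 11.1% among clock genes. Of 18 clock genes Clock (1.55 ± 0.24), Nr1d2 and Arntl rose and Nr1d1 and Tef fell, and 2 members rose and 0 fell without S280A replicate 2, as without S280D replicate 1.

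**Figure D4:**
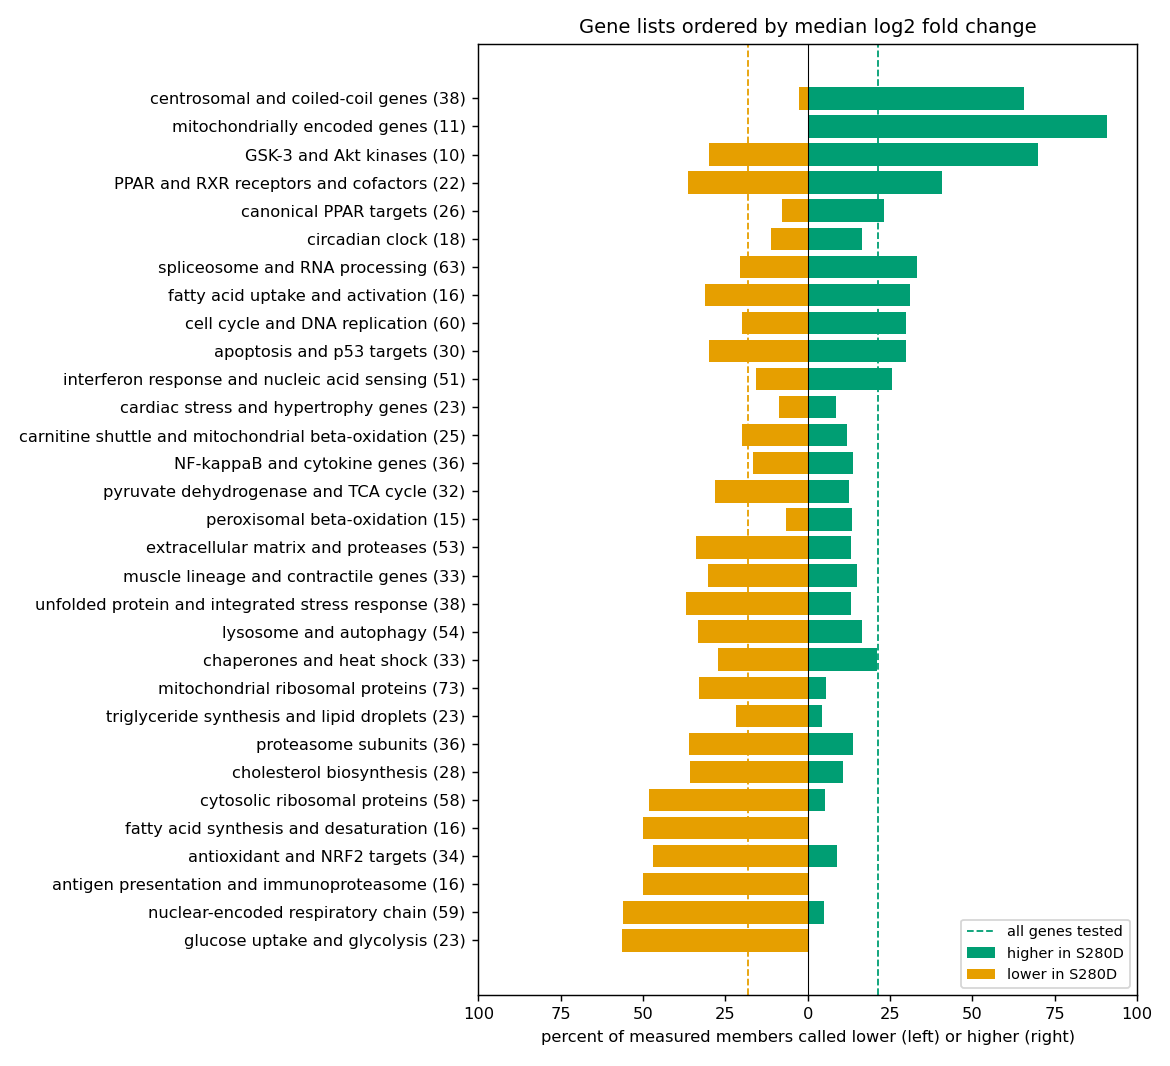
Percent of measured members called higher (green, right) or lower (orange, left) in S280D for each list with at least 10 measured members, whose number stands in brackets, ordered by median log2 fold change from top to bottom. Dashed lines mark the 21.3% and 18% of all genes tested. The mitochondrial and centrosomal lists extend beyond the right line only, glycolysis and the nuclear respiratory chain beyond the left only, and the kinase and cofactor lists beyond both.

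Among genes with at least 2 CPM on average and at least 50% unique reads, Trove2, Cntln, Ythdc2, Mob1b, Zfp40 and Haus6 had the largest log2 fold changes, from 2.46 to 2.36. Mob1b, a Hippo pathway adaptor, was at 2.74 and 2.34 CPM against 15.9 and 10.5 CPM (2.38 ± 0.27). The kinase Taok1 was at 13.7 and 9.90 CPM against 64.6 and 36.9 CPM (2.10 ± 0.26). The largest decrease was in Nfkbil1, a relative of the NF-κB inhibitors, from 19.3 and 23.3 CPM to 8.63 and 8.29 CPM (-1.33 ± 0.21). Ubtd1 (-1.20 ± 0.20), the cytosolic DNA exonuclease Trex1 (60.0 and 106 CPM against 36.1 and 41.8 CPM), the muscle cytochrome oxidase subunit Cox6a2 (-1.08 ± 0.28) and Ly6e (-1.08 ± 0.21) were other large decreases. A lack of overlap between the groups was a condition of the ranking. Nfkbil1 and Mob1b were called in all 17 alternatives.

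The calls ran with exon length. The genes that were higher in S280D had a median exon length of 3191 bases, the genes that were lower 1938 bases and those not called 2194 bases. In the shortest of 5 quintiles 9.34% of genes were higher and 22.2% lower, and in the longest 37.3% were higher and 10.6% lower. With an offset for exon length in the fit, these shares were 14.5% and 11.2% in the shortest and 27.3% and 24.5% in the longest quintile, and 2550 genes were higher and 2278 lower in all. Dmd and Rock2 among the long genes were called with the offset (log2 fold changes 1.36 and 1.41), and so were Rplp0 and Ndufb7 among the short ones (-0.78 and -0.58). Ahnak, with 17602 exon bases, was called higher without the offset (0.49 ± 0.15) and stood at -0.10 with it. Vldlr was not called with it (0.21, adjusted p = 0.138).

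**Figure D5:**
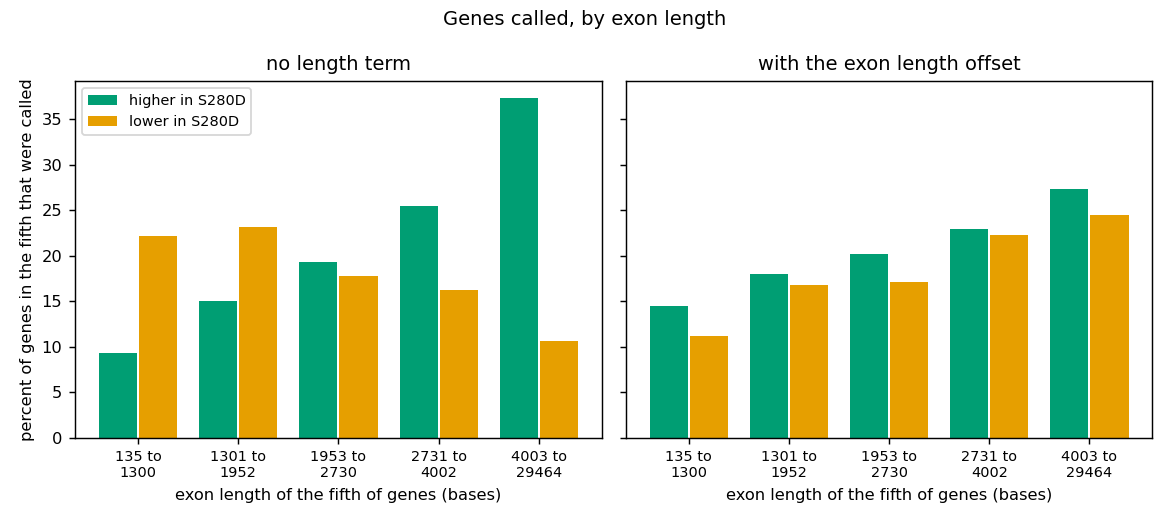
Percent of genes called higher (green) or lower (orange) in S280D in each quintile of exon length, without a length term (left) and with the exon length offset (right). On the left the higher calls run from 9.34% to 37.3% and the lower calls from 22.2% to 10.6%, and on the right both shares run upward with length, to 27.3% and 24.5%.

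Intron reads of the same libraries were compared as a measure of unspliced RNA. Of 12988 genes tested 590 (4.54%) were called, and 253 were higher (1.95%) and 337 lower (2.59%). Among the genes called higher in exon reads 2366 were measured in introns, with a median log2 fold change of 0.42, and 142 were called higher and 16 lower. Among those called lower 1920 were measured, with a median of -0.32, and 83 were called lower and 3 higher. Ifit2 (3.55, adjusted p = 0.0411), Eif2ak2 (1.03, adjusted p = 0.0306) and Postn (0.96, adjusted p = 0.0403) were called higher in both. Irf7 and Aldoa were called lower in both (-1.17 and -0.95). Rock2, with an exon change of 1.76, had an intron change of 0.05 that did not pass (adjusted p = 0.933). The intron calls rested on single libraries, with 4 genes called without S280A replicate 2 and 5 without S280D replicate 1.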

How the data were processed

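RNA of 8 H9C2 libraries was analysed. The authors deposited 1 table of raw read counts per gene, with total exon, unique exon and intron reads, per the file headers, and their own tests as fold changes and adjusted p-values. The submitters' processing notes name the Rnor 6.0 build. No source used here gives the aligner, the annotation or whether counting used strand, so genes that overlap on opposite strands may share reads.

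Exon read totals entered edgeR 4.0.16 (R 4.3.3, limma 3.58.1): filterByExpr, TMM scaling, quasi-likelihood fit of all 8 libraries with 1 coefficient per group and 4 residual degrees of freedom, two-sided, Benjamini-Hochberg threshold 0.05. CPM are TMM-scaled. The same test was run on intron reads of 12988 genes. Lists are given by counts and medians over measured members, with no test. Of 1219 list symbols 1152 matched a name in the table and 1033 genes were tested. The members, lists and rules were chosen with earlier results of these data known. Genes were named by rule: Ppara, those with the largest changes in log2 fold change or CPM that were called, not overlapping, at 2 CPM or more and at least 50% unique, up to 4 called genes per list and direction, and every measured member of the PPAR target, fatty acid uptake, β-oxidation, cofactor, kinase and NF-κB lists. Some genes named by the rule are not reported here. Other list members given by value only were chosen after their values were seen. Within-lane differences use a prior of 0.5 CPM.

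Promoters are RefSeq sequences of GRCr8, found for 8465 of the genes tested. The scripts were tested on simulated counts of 12407 genes, with 68 genes altered 1.5-fold, 66 altered 2-fold and 66 altered 4-fold. edgeR called 23.5% of the genes altered 1.5-fold, 69.7% at 2-fold and 95.5% at 4-fold, with 5 false calls, and 0 genes were called with no change. Far fewer genes were altered than were called in the data, so these shares do not give the sensitivity of this comparison. Alternatives were DESeq2 1.42.0, RLE size factors, keeping low counts, a filter of 1 CPM, the 4 libraries alone, replicate and lane blocks, unique reads, an exon length offset, thinning to 14018785 reads, a 1.5-fold threshold and leaving out each library.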

Additional observations from a re-analysis of the deposited data

How the results depend on the processing

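The counts of 2641 higher and 2232 lower genes stayed within 1.5 times under 9 settings: RLE size factors, keeping low counts, 1 CPM, DESeq2, the 4 libraries alone, lane block with 8 libraries, unique reads, exon length offset and thinning. The replicate block gave 3391 higher and 3048 lower genes with 4 libraries and 2527 and 2093 with 8, also within 1.5 times. The labels do not say that a replicate number marks a shared culture or day. Deviations of same-numbered libraries correlated at 0.205 across genes, and with 2 libraries a group the value for the same lane is its mirror image, so pairing could not be judged from it. With lane as a block on the 4 libraries 3162 genes were called, 2215 higher and 947 lower, so that 70.1% of calls were higher in place of 54.2%. A 1.5-fold threshold gave 733 calls, 707 higher and 26 lower. Leaving out 1 library gave 1254 to 5000 calls, 963 to 2663 higher and 216 to 2337 lower. The share of calls that were higher was 76.8% without S280A replicate 2 and 83.8% without S280D replicate 1. For intron reads the 590 calls became 161 with the 4 libraries alone and 4 to 1145 when 1 library was left out. Of 266 named genes that were called, 266 were called the same way with RLE size factors, 254 with DESeq2, 201 with the lane block on 4 libraries, 246 with the offset, 114 without S280A replicate 2 and 107 without S280D replicate 1. Ahnak stood at -0.10 with the exon length offset, against 0.49. The median of the 2 measured macrophage markers, at -0.68, ran from -1.15 to 2.24 when 1 library was left out. The cause of these shifts was not tested. No scaling moved the median of all genes by more than 0.1.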

Other observations

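The wild-type receptor gave levels on the side of S280D for most genes that separated the mutants. Of the 2641 genes higher in S280D the WT mean lay nearer to the S280D mean than to the S280A mean for 2498 (94.6%), and between the 2 mutants for 2291 (86.7%). Of the 2232 lower genes it lay nearer to S280D for 1983 (88.8%). The YFP mean lay nearer to S280A for 2267 of the higher and 1793 of the lower genes. The YFP mean also lay between the 2 mutants for 1902 of the higher and 1619 of the lower genes, beside 2291 and 1888 for WT. These genes were selected because the mutants differ, which favours a place between them for any other group. Lying between the mutants is therefore not by itself a property of the wild-type receptor. Cav2 and Dmd had WT means of 45.5 and 14.7 CPM, between the mutants, whereas the WT mean of Angptl4, 8.63 CPM, was close to its S280A values. Both WT libraries came from lane 2 and both YFP libraries from lane 1, and these positions were not adjusted for lane. In mitochondrial reads WT (1.37% and 1.17%) lay nearer to S280D and YFP (0.506% and 0.604%) nearer to S280A. The same held for junction reads, at 21.8% and 21.9% in WT and 23.2% and 23.0% in YFP. The share of the 10 most abundant genes was 14.5% and 16.4% in WT and 15.4% and 15.9% in YFP. Neither this share nor the exon read totals divided WT from YFP. The part of these properties was not tested.

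The calls ran with level too. Among the quintile of genes with the highest mean CPM 20.3% were higher and 37.5% lower in S280D, and among the lowest 8.98% and 3.02%.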
